A study of Mus musculus with 24 samples.

Results

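The Serpina antiprotease cluster of the mouse liver was followed through 10 genes: the 5 Serpina1 paralogs (Serpina1a, Serpina1b, Serpina1c, Serpina1d and Serpina1e), 4 Serpina3 paralogs (Serpina3g, Serpina3k, Serpina3m and Serpina3n) and Serpina6. They were taken by symbol from a table of 34436 gene rows, and all 10 were among the 12595 genes with enough reads to be tested. Whole livers of wild-type C57BL/6 mice were sequenced as total RNA after 8 weeks on a diet begun at 8 to 10 weeks of age. The diets with libraries here were high sucrose (HS, 5 libraries), high sucrose with 2% cholesterol (HS_Chol, 3 libraries), 2% cholesterol with cholic acid (Chol_CA, 4 libraries), cholic acid without cholesterol (CA, 4 libraries) and normal chow (NC, 4 libraries). No group carried a transgene or a mutant allele, and nothing in the labels beyond a sample number says which samples were separate animals, so p-values measure the spread between these samples.

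Serpins are protease inhibitors that act by suicide: the target protease cuts an exposed reactive loop of the serpin, the loop folds into the body of the inhibitor, and the protease is left bound and distorted. The residue just before the cut bond, called P1, is the main determinant of which protease is caught. Mice carry several copies of the gene for alpha-1-antitrypsin (Serpina1), the main plasma inhibitor of neutrophil elastase, and a large family of copies of the gene for antichymotrypsin (Serpina3), while humans have a single copy of each. Hepatocytes secrete most of these proteins into the blood. Serpina6 encodes corticosteroid-binding globulin, a serpin that carries glucocorticoids and inhibits no protease.

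All 10 genes lie on chromosome 12 within 768 kb (chr12:103646630-104414329, GRCm38). Serpina6 and the Serpina1 paralogs are on the minus strand and the Serpina3 paralogs on the plus strand. The stretches below, read from the GENCODE M21 transcripts, are shown because the loop carries the residues that meet the protease. Each has 60 coding bases that run through the loop, and the capitals mark the 17th codon, which in the Serpina1 paralogs is the P1 codon; in the Serpina3 paralogs it is the codon at the same count.
Serpina1a: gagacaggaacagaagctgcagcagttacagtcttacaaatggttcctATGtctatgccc
Serpina1b: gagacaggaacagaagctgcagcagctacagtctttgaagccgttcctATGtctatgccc
Serpina1c: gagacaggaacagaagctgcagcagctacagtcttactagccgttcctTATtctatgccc
Serpina1d: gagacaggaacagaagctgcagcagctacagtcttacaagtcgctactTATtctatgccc
Serpina1e: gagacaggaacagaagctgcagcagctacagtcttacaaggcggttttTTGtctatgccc
Serpina3g: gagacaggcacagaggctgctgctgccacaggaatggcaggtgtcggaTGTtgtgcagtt
Serpina3k: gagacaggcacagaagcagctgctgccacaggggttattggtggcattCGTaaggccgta
Serpina3m: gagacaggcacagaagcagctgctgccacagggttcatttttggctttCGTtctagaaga
Serpina3n: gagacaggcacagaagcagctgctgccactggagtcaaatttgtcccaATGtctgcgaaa
Within the Serpina1 paralogs the marked codon was ATG in Serpina1a and Serpina1b, TAT in Serpina1c and Serpina1d, and TTG in Serpina1e. The copies were close to each other: whole coding sequences, loop included, of any pair of Serpina1 paralogs were 96.3% to 98.5% identical, and those of Serpina3k and Serpina3m were 91.1% identical.

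Near-identical copies share 50-base reads, so the level of each copy is less certain than that of a gene without copies. Whether and how shared reads were counted was not tested, so sums over copies may be too low as well. The share of 50-base windows found in no other annotated gene was 20.7% for Serpina1c, 42.4% for Serpina1a, 49.1% for Serpina1d, 65.4% for Serpina1e and 70.5% for Serpina1b. It was 80.9% for Serpina3m, 84.5% for Serpina3g, 86.0% for Serpina3k, 93.1% for Serpina3n and 100% for Serpina6. Serpina1c also overlaps B430119L08Rik on the opposite strand over 429 exonic bases. That gene had 74.5 to 95.2 CPM (the reads of a gene relative to the effective size of its library) in the 3 HS_Chol libraries and at most 6.35 CPM in every other library. Its part in the Serpina1c values of HS_Chol was not tested.

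The libraries held 6110484 to 10244277 reads. The defining hepatocyte markers were present in every group, with a summed level of 63657 to 79136 CPM in Chol_CA, 90619 to 119600 CPM in CA, 92134 to 101813 CPM in HS_Chol, 104123 to 122053 CPM in HS and 131290 to 139218 CPM in NC. In whole liver, fewer hepatocytes and less RNA of a gene per hepatocyte cannot be told apart. CA library 0 stood apart from the other 3 CA libraries in several of the genes below, mainly Serpina1c, Serpina1e, Serpina3k and Serpina3m, whose fold changes against CA are given with and without it. Relative to the mean of all libraries, read counts fell with transcript length in 8 libraries (3 HS, 1 HS_Chol, 2 Chol_CA, 1 CA and 1 NC). They rose with it in 12. Measured against this mean, some libraries must fall and others rise. Slopes (log2 CPM per doubling of length) ran from -0.281 in Chol_CA library 1 to 0.136 in Chol_CA library 3. Some lay near 0, such as 0.019 in CA library 3 and -0.031 in HS_Chol library 0. The CA library of negative trend was CA library 0, and the NC library was NC library 3. Fits over the libraries of positive trend alone therefore leave out CA library 0 as well. The part of this trend in what sets CA library 0 apart was not tested. The label of 1 HS sample names chow as its diet, and since the table's columns are not tied to single samples, none of the 5 HS libraries was left out for it. Values after ± are SD over the libraries of a group for levels and SE for fold changes.

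In chow-fed livers the genes spanned a wide range of levels. Per kilobase of exon, Serpina1e had 3447 ± 793 CPM in NC (SD, n = 4) and Serpina3k 3283 ± 356 CPM, and these did not differ beyond their spread. Serpina1c followed at 2390.3 ± 491 CPM per kilobase, then Serpina1d at 1539 ± 329 and Serpina1b at 1430.4 ± 333 CPM per kilobase, which overlapped. Serpina1a (256 ± 54.0), Serpina3n (173 ± 29.9), Serpina6 (156 ± 26.8) and Serpina3m (93.5 ± 20.7 CPM per kilobase) formed a lower tier in which Serpina3n and Serpina6 did not differ beyond their spread. Serpina3g was lowest at 1.92 ± 0.61 CPM per kilobase. Counted per kilobase of windows that no other gene holds, Serpina1c moved to first place in NC with 11960.2 CPM. Without division by length, Serpina1b had 3454.5 ± 805 CPM in NC and Serpina1c 3253 ± 668 CPM, which overlapped. The order within Serpina1 thus depends on how length and shared reads are treated.

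The order was another in CA livers. Serpina1e stood 9th of the 10 genes in CA livers at 72.4 ± 79.3 CPM per kilobase. In NC livers it was highest together with Serpina3k, from which it did not differ beyond the spread. Per kilobase of windows that no other gene holds, it stood 9th in CA and 2nd in NC. Serpina3k, Serpina1b, Serpina1c and Serpina1d had 1170.2 ± 955, 1096 ± 115, 1069 ± 608 and 845 ± 187 CPM per kilobase in CA, and their libraries overlapped, so no order among these 4 is drawn. The first place of Serpina3k rested on CA library 0, with 2558 CPM per kilobase in that library and 1037, 516 and 570 in the others, where Serpina1b had 952, 1182 and 1056 CPM per kilobase. Together the 10 genes took 0.933% ± 0.369 of all reads in CA, 1.72% ± 0.387 in Chol_CA, 1.82% ± 0.337 in HS_Chol, 2.22% ± 0.387 in HS and 2.06% ± 0.209 in NC. Of the diets, CA alone had a range (0.687% to 1.48%) wholly below that of NC (1.86% to 2.27%).

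**Figure D1:**
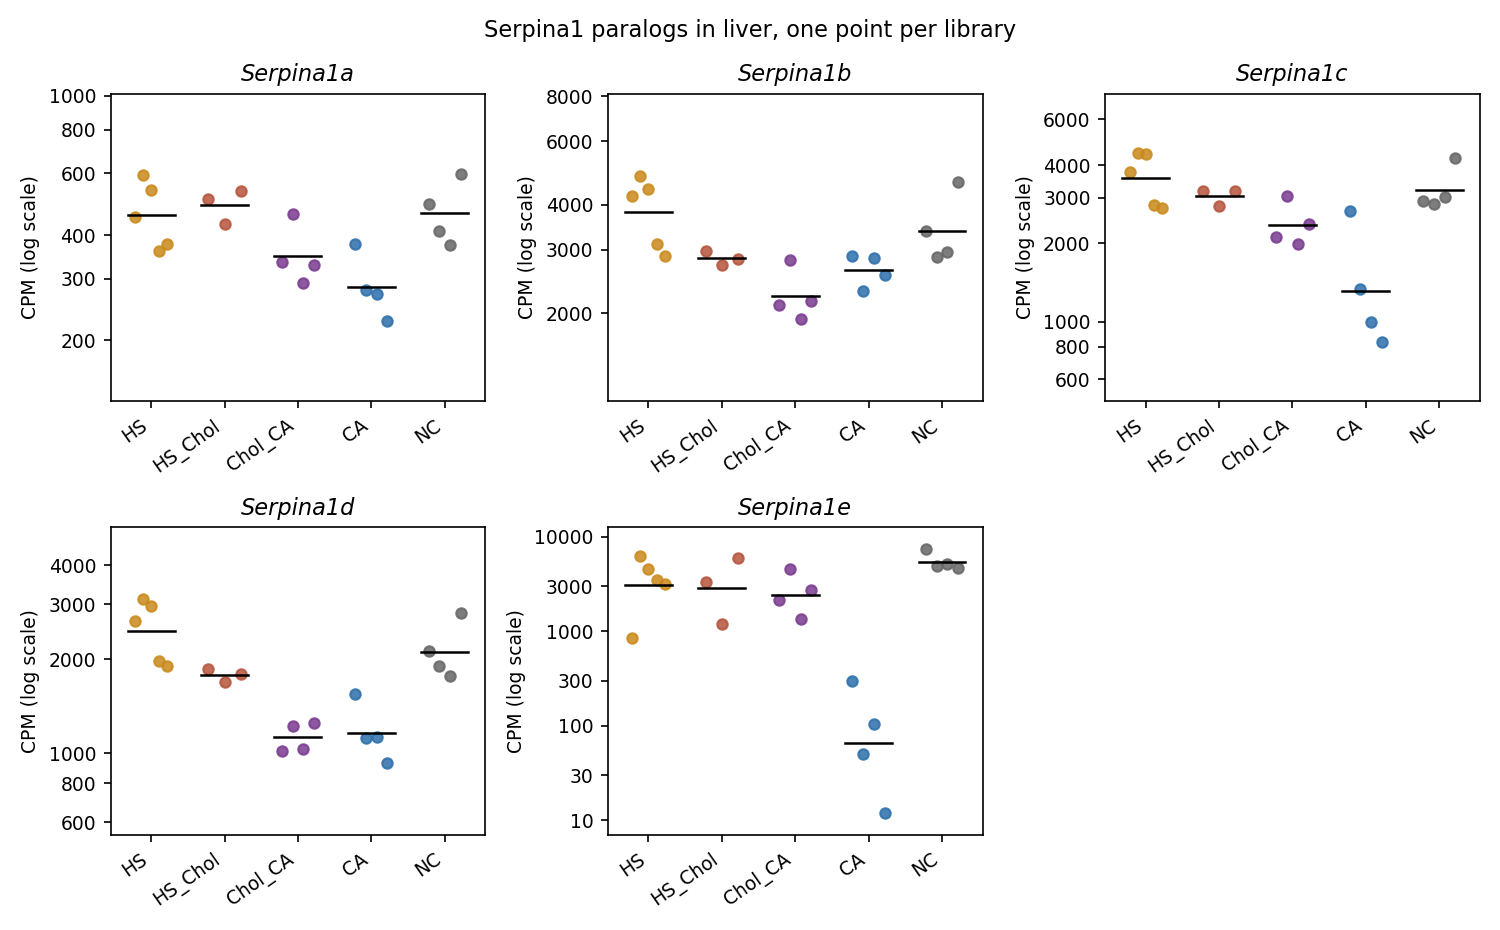
Level (CPM, log scale) of the 5 Serpina1 paralogs in each library, by diet; points are libraries and bars are geometric means. Serpina1e lies between 11.9 and 301 CPM in the 4 CA libraries and between 4709 and 7476 CPM in the 4 NC libraries.

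The comparison of CA with NC asks what dietary cholic acid, a primary bile acid, does to liver transcripts. In CA livers 5 of the 10 genes fell and none rose: Serpina1e, Serpina3k, Serpina1c, Serpina1d and Serpina1a. Across all genes tested, 9.83% were called in this comparison and 4.61% were called lower (edgeR quasi-likelihood test, Benjamini-Hochberg adjusted p under 0.05). Calls in the other direction took 5.22% of all genes. The median log2 fold change was -0.56 over the 10 genes and 0.01 over all genes.

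Serpina1e, the paralog with the TTG loop codon, fell furthest. It had 301, 50.8, 105 and 11.9 CPM in CA libraries 0 to 3, against 7476, 4928, 5183 and 4709 CPM in NC libraries 0 to 3. Every CA library was below every NC library, and CA library 0 was the highest of the CA group. The fitted log2 fold change was -5.57 ± 0.82 (SE), a 47.6-fold fall (adjusted p = 0.000157, edgeR). Without CA library 0 it was -6.64 ± 0.84.

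Serpina1c had 2657, 1329.5, 996 and 837 CPM in CA livers, against 2922, 2827, 3015 and 4248 CPM in NC livers. The groups did not overlap, but CA library 0 lay close to the NC range. Its log2 fold change was -1.16 ± 0.28 (adjusted p = 0.0104, edgeR) with that library and -1.63 ± 0.22 without it. Serpina1d, which shares the TAT codon, had 1545, 1115, 1124 and 929 CPM in CA, against 2116, 1904, 1763 and 2798 CPM in NC, again with no overlap. It fell by 0.86 ± 0.19 on the log2 scale (adjusted p = 0.00515, edgeR).

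The ATG-codon paralogs had the fold changes nearest to 0 in CA, but Serpina1a did not differ from Serpina1d beyond their SE. In Chol_CA over NC the order did not follow the codon, with Serpina1b at -0.62 ± 0.18 and Serpina1c at -0.45 ± 0.28. Serpina1a had 377, 278, 272 and 227 CPM in CA, against 492, 411, 374 and 598 CPM in NC, and the highest CA library overlapped the lowest NC library. It was called lower at -0.70 ± 0.20 (adjusted p = 0.0275, edgeR), a call that 7 of 16 alternatives did not keep (adjusted p up to 0.107). Serpina1b had 2887, 2299, 2855 and 2550.1 CPM in CA, against 3372, 2868, 2961 and 4617 CPM in NC, and the groups overlapped. Its log2 fold change of -0.38 ± 0.18 did not pass the test (adjusted p = 0.217, edgeR).

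The shares of the Serpina1 reads describe this within each library. Serpina1e supplied 1.77% ± 1.56 of all reads counted to Serpina1 in CA, against 37.6% ± 7.39 in NC (SD, n = 4 each). The ATG paralogs supplied 53.1% ± 8.53 in CA, against 26.2% ± 3.12 in NC, and the TAT paralogs 45.2% ± 7.32 in CA, against 36.2% ± 4.40 in NC. Most of the ATG share was Serpina1b, with 48.0% ± 8.50 in CA and 23.1% ± 2.87 in NC. The shares of a library add up to the whole, so a smaller Serpina1e share by itself makes the others larger. Serpina1a, Serpina1c and Serpina1d had larger combined shares by codon although each was called lower. The log2 ratio of Serpina1e to Serpina1b reads, which no library scaling can alter, averaged -5.32 ± 1.87 in CA and 0.69 ± 0.47 in NC, without overlap. The exact two-sided permutation test gave p = 0.0286, the smallest that 4 libraries against 4 allow. Over the 28 paralog ratios tested, with denominators chosen after their values were seen, the adjusted p was 0.114, and no ratio passed the correction.

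**Figure D2:**
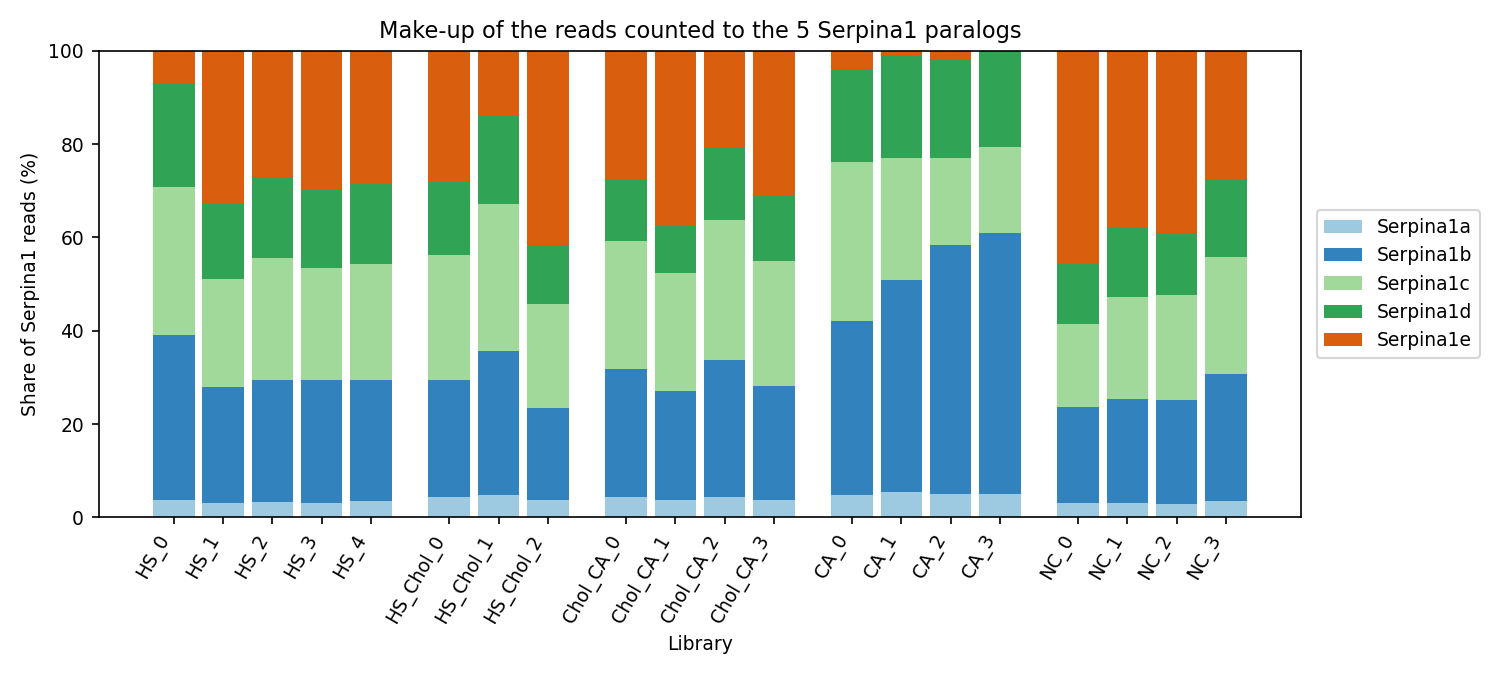
Share of the reads counted to Serpina1 that went to each paralog (percent, stacked to 100), one bar per library, grouped by diet. Serpina1e takes 0.261% to 3.87% in CA libraries and 27.8% to 45.6% in NC libraries; HS library 0, at 7.16%, is the lowest outside CA.

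The sequences before the start sites of Serpina1b (chr12:103738190-103738439, GRCm38.p6, minus strand) and Serpina1e (chr12:103956898-103957147, minus strand) are printed because their fold changes in CA lay at the opposite ends of the Serpina1 range while their promoters are alike. Over the positions that aligned in the 250 bases before each RefSeq start, pairs of Serpina1 paralogs were 91.6% to 97.0% identical. Serpina1b and Serpina1e had the highest percentage, but over only 200 aligned positions, as the window of Serpina1e lies further downstream. The rest of their windows was not compared. Serpina1a and Serpina1c had more identical positions, 233 of 243 aligned, against 194 of 200. Of the 10 genes, 7 had a promoter entry; Serpina3k, Serpina3m and Serpina6 had none.
Serpina1b: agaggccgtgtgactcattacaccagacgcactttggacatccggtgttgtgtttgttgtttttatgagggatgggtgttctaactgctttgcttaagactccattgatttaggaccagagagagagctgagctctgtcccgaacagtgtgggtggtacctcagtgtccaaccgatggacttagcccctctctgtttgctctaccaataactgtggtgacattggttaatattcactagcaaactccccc
Serpina1e: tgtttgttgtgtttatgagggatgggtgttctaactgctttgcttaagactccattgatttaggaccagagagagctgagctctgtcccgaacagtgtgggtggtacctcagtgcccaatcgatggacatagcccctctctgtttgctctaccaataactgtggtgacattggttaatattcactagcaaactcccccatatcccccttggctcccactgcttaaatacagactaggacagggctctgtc

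Among 11 liver transcription factors tested, 3 fell in CA and none rose. Cebpa, a factor for many secreted liver proteins, averaged 163 ± 19.7 CPM in CA and 343 ± 37.8 CPM in NC, and Nr1h4, the bile acid receptor, 86.3 ± 12.5 CPM in CA and 152 ± 6.07 CPM in NC. Both calls held in all 16 alternatives, and Foxa3 was the third.

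Serpina3k, the most abundant Serpina3 paralog and known as contrapsin, also fell in CA. It had 5262, 2134, 1061 and 1172 CPM in CA libraries 0 to 3, against 7488, 5999, 6261 and 7262 CPM in NC. The groups did not overlap, with CA library 0 near the NC range. The log2 fold change was -1.49 ± 0.35 (adjusted p = 0.00861, edgeR), and -2.21 ± 0.23 without that library.

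Serpina3m, its closest relative, was not called with all libraries. It had 94.1, 256, 360.1 and 394 CPM in CA, against 136, 183, 125 and 199 CPM in NC. CA library 0 was below the NC group and the other 3 were above it, so the log2 fold change was 0.78 ± 0.30 (adjusted p = 0.119, edgeR) with that library and 1.07 ± 0.21 (adjusted p = 0.00265) without it. Serpina3k and Serpina3m share 257 of their 50-base windows, and whether and how reads shared between them were counted was not tested. Serpina3k supplied 93.2%, 80.1%, 62.6% and 63.5% of the reads counted to the 4 Serpina3 genes in CA libraries 0 to 3, against 91.5% to 93.8% in NC. Serpina3m supplied 1.67%, 9.60%, 21.2% and 21.4% in CA, against 1.69% to 2.79% in NC. In both shares CA library 0 lay in or next to the NC range and the other 3 were outside it.

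Serpina3n, an inhibitor of granzyme B that is induced in the acute phase, lay between 262 and 269 CPM in the 4 CA livers, against 433, 372, 285 and 339.7 CPM in NC. The groups did not overlap, and the log2 fold change of -0.42 ± 0.15 did not pass the test (adjusted p = 0.0833, edgeR). Serpina3g, an inhibitor of cysteine cathepsins expressed in leukocytes, had 18.1, 11.4, 7.01 and 9.03 CPM in CA, all above the 2.85 to 5.82 CPM of NC, and also missed the threshold (1.49 ± 0.56, adjusted p = 0.11). Serpina6 had 262, 333, 543 and 386 CPM in CA, against 242, 247, 344 and 264 CPM in NC, with overlap (0.47 ± 0.23, adjusted p = 0.229).

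Serpina1e did not stand alone in its stretch of the chromosome. Of the 9 other clade A serpins tested, 3 fell in CA and none rose, and all 3 lie on the Serpina3 side of Serpina1e, with Serpina11 in between. Serpina12 (vaspin, a secreted serpin) had 9.87, 5.18, 4.74 and 3.93 CPM in CA, against 68.2, 83.9, 38.8 and 115 CPM in NC. Its log2 fold change was -3.69 ± 0.35 (adjusted p = 1.31e-06, edgeR). Serpina4-ps1, annotated as a pseudogene, fell by 3.30 ± 0.82 on the log2 scale (adjusted p = 0.0123, and 0.0535 with no filter), and Serpina9 by 3.32 ± 0.73 (adjusted p = 0.0054), Serpina9 with 0.294 ± 0.512 CPM in CA and 2.92 ± 1.16 CPM in NC. Serpina11 had a log2 fold change of -0.49 ± 0.20 (adjusted p = 0.139).

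**Figure D3:**
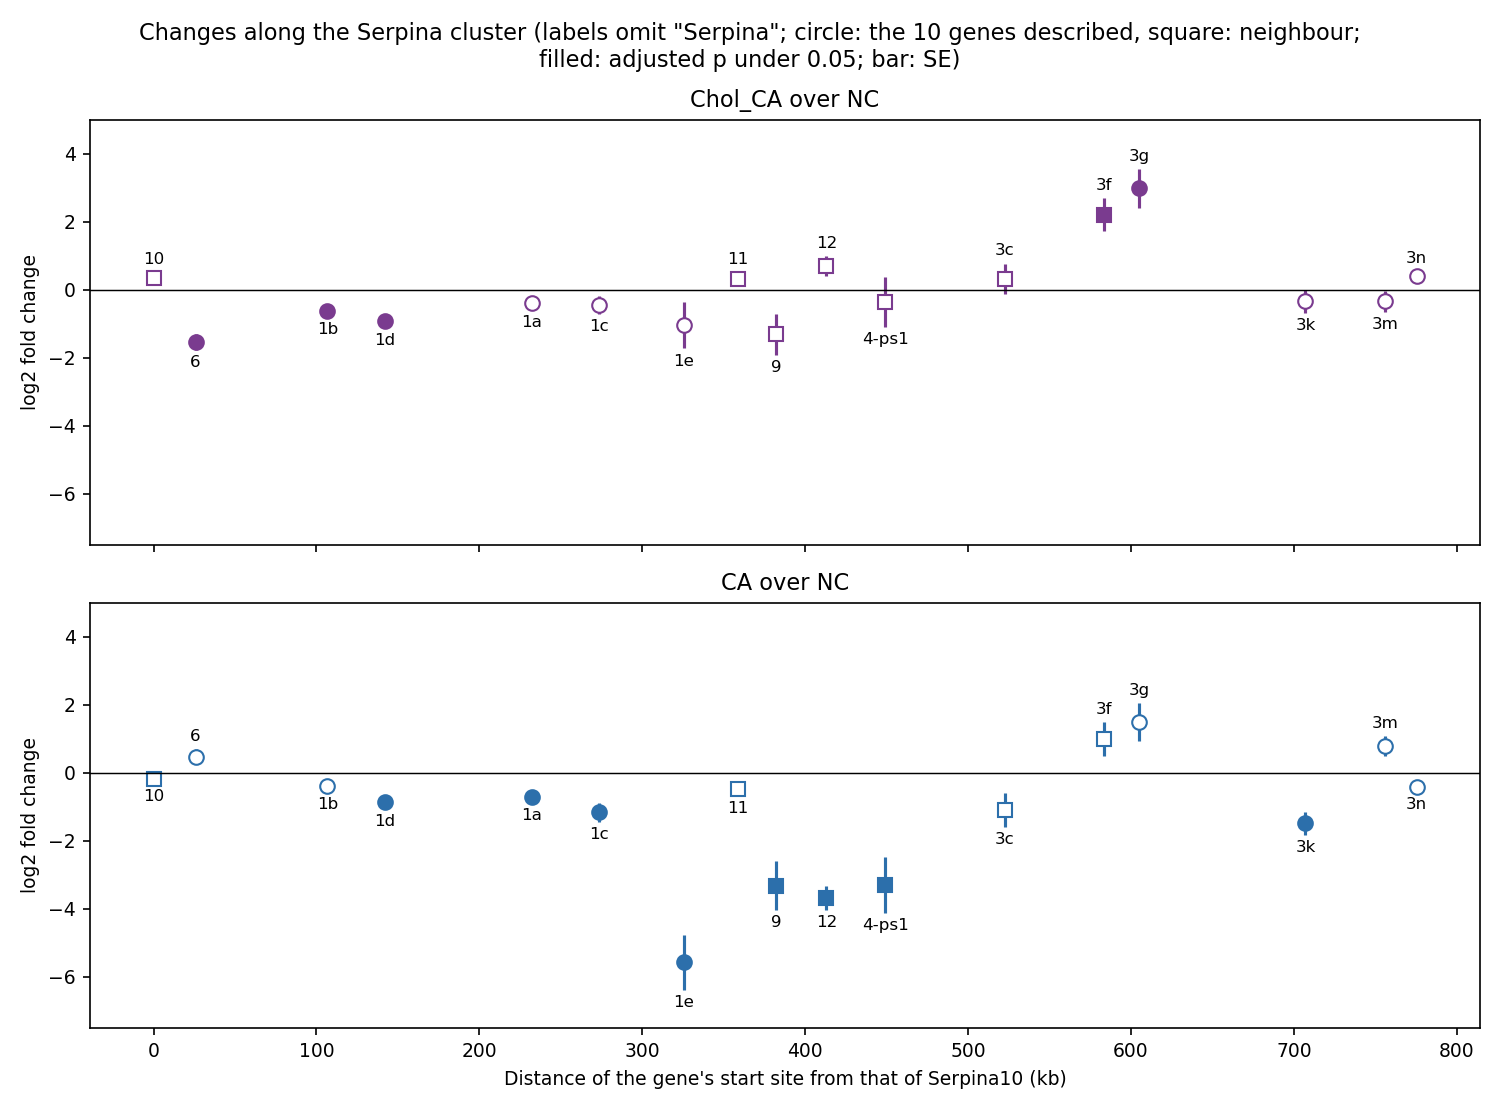
Fitted log2 fold change (error bar SE) of the tested clade A serpins of the cluster against the distance of each start site from that of Serpina10 (kb), for Chol_CA over NC (top) and CA over NC (bottom); circles are the 10 genes described, squares their neighbours, and filled symbols have an adjusted p under 0.05. In CA the 4 most negative values belong to Serpina1e, Serpina9, Serpina12 and Serpina4-ps1.

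The genes whose profile over the 20 libraries was most like that of Serpina1e, by root mean square difference of centred log2 CPM among 9365 genes, were Hsd3b5 (0.87), Slco1a1 (0.99) and Elovl3 (1.06), against a deviation of 2.50 for Serpina1e itself. Hsd3b5, a steroid dehydrogenase of male mouse liver, averaged 5.71 ± 7.27 CPM in CA and 195 ± 18.6 CPM in NC (-5.10 ± 0.67, adjusted p = 5.13e-05, edgeR). Slco1a1, an organic anion transporter, averaged 37.3 ± 51.5 CPM in CA and 557 ± 107 CPM in NC (-3.90 ± 0.73, adjusted p = 0.00157). Both genes were picked for their likeness to Serpina1e over these same libraries. Their falls in CA follow from that choice and are no separate result. For Serpina3k the 2 most alike were Pglyrp2 (0.31) and Gulo (0.31), and for Serpina1c Apon (0.23) and Hsd3b7 (0.27). The closest genes were Atp5g3 (0.12) for Serpina1b, H2-Q10 (0.17) for Serpina1d, Notum (0.17) for Serpina1a, Frmd8 (0.21) for Serpina3n and Sult1b1 (0.32) for Serpina3m. None of the 3 closest genes of any of the 10 was another of the 10.

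Genes of the growth hormone axis, which sets the sex pattern of liver transcripts in mice, also moved in CA: 3 of 16 tested rose and 5 fell. Ghr, the growth hormone receptor, averaged 335 ± 49.6 CPM in CA and 712 ± 50.8 CPM in NC (adjusted p = 0.00128, edgeR). Igf1 averaged 429 ± 49.3 CPM in CA and 759 ± 68.2 CPM in NC (adjusted p = 0.000292). Cyp2b9, a cytochrome that is higher in female mouse liver, averaged 167 ± 118 CPM in CA and 0.522 ± 0.413 CPM in NC, while Cyp4a12a, higher in males, averaged 115 ± 106 CPM in CA and 292 ± 32.2 CPM in NC. The Cyp4a12a call was lost in 10 of 16 alternatives. In Chol_CA 5 of the 16 fell and none rose.

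Of 17 genes for folding and export of secreted proteins, 5 fell in CA and none rose, among them Hspa5, the main chaperone of the endoplasmic reticulum (430.5 ± 80.1 CPM in CA and 723 ± 69.9 CPM in NC; adjusted p = 0.0185, edgeR). The Hspa5 call was lost in 4 of 16 alternatives, on leaving out NC library 1 or CA library 1, 2 or 3 (adjusted p up to 0.0572). Acute phase genes gave 3 of 27 higher (Lbp, Cp and Mt1) and 1 lower (Crp) in CA, of which the Cp call was lost in 9 and the Crp call in 1 of 16 alternatives. Among 9 target or related proteases tested, F11 was the only one called in CA, at 35.8 ± 8.33 CPM in CA and 79.9 ± 10.4 CPM in NC. Of 12 serpins outside clade A, 3 fell (Serpine2, Serpinf1 and Serpinb1a), and none of 17 genes of interleukin-6 and interleukin-1 signalling was called (edgeR). Of 11 glucocorticoid axis genes 2 fell (Dusp1 and Tat).

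Markers of other cells moved in CA as well. Of the 9 Kupffer cell and macrophage markers 7 rose, with a summed level of 191 to 550.3 CPM in CA and 76.2 to 107 CPM in NC, and 3 of 12 interferon-response genes rose. Among 6 T and NK cell markers 1 rose (2.76 to 27.4 CPM summed in CA and 2.33 to 8.66 CPM in NC), among 6 endothelial markers 1 rose, and among 7 stellate cell markers 1 fell. The interferon-response calls were lost in 7 (Gbp3), 8 (Igtp) and 5 (Irf7) of 16 alternatives. That of the T cell marker Cd8a was lost in 7 of 14, and that of the endothelial marker Cdh5 in 2 of 16. None of the 4 neutrophil, 3 B cell and 5 cholangiocyte markers tested was called. Of 10 hepatocyte markers 2 fell (Cyp2e1 and Tat). The part of these cells in the values of the 10 genes was not tested.

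The comparison of Chol_CA with NC asks what cholesterol and cholic acid do together. In Chol_CA livers Serpina3g rose, and Serpina6, Serpina1d and Serpina1b fell. Across all genes tested 24.3% were called (15.0% higher and 9.35% lower), so calls were common in this comparison and the count of 4 in 10 says little about these genes as a group. The median log2 fold change was -0.43 over the 10 genes and 0.00 over all genes.

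**Figure D4:**
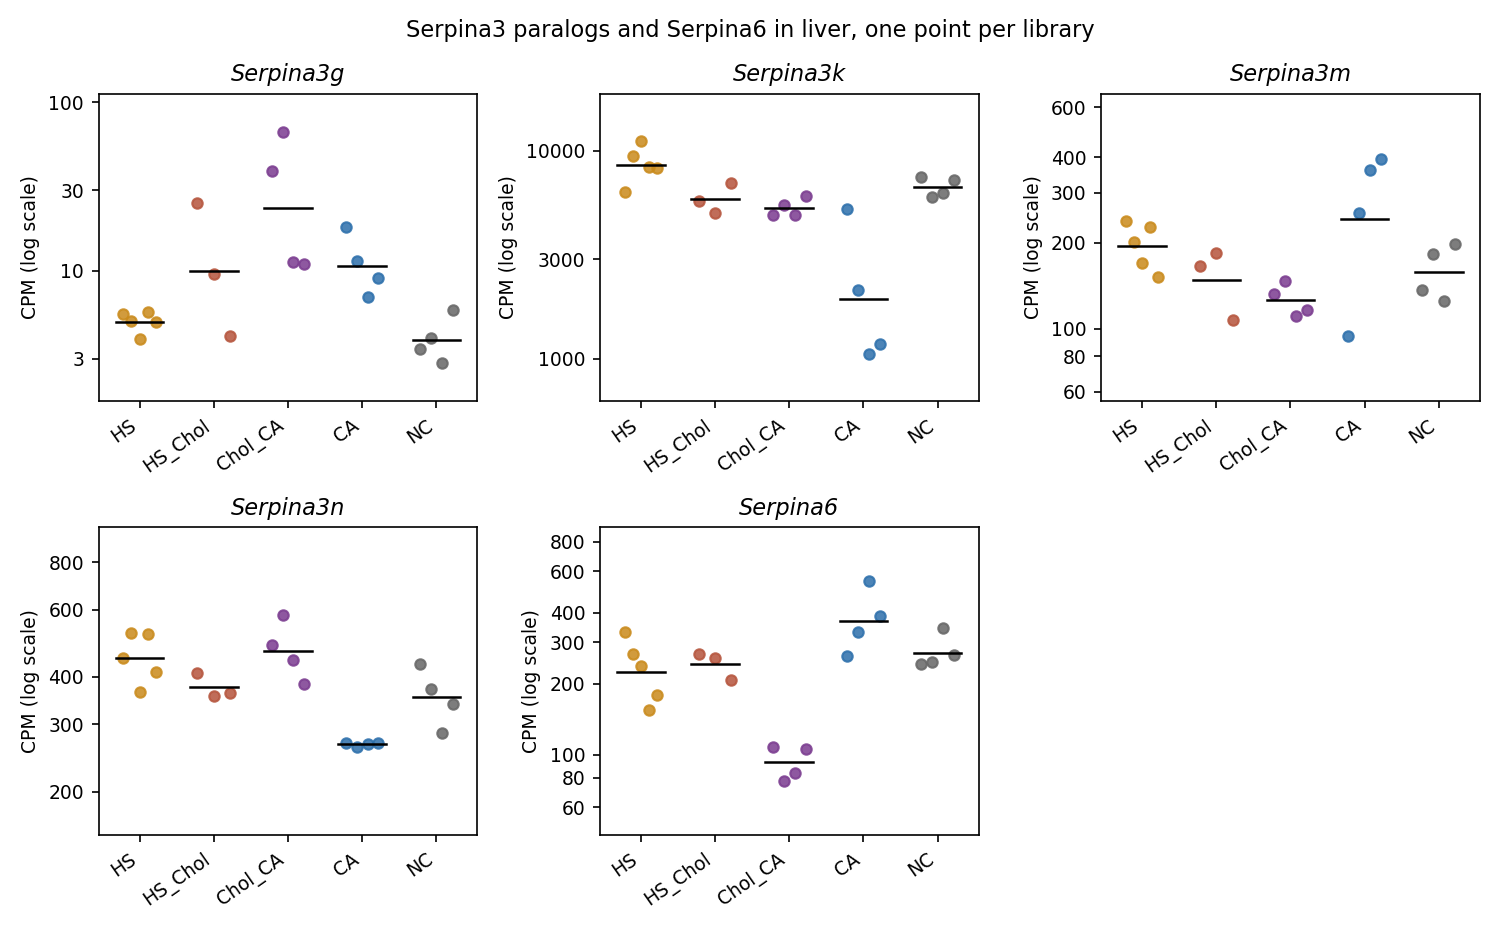
Level (CPM, log scale) of the 4 Serpina3 paralogs and Serpina6 in each library, by diet; points are libraries and bars are geometric means. Serpina6 lies between 77.8 and 108 CPM in Chol_CA and between 242 and 344 CPM in NC, and Serpina3g between 10.9 and 66.2 CPM in Chol_CA and between 2.85 and 5.82 CPM in NC.

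Serpina6, the glucocorticoid carrier, had 108, 77.8, 84.2 and 106 CPM in Chol_CA, against 242, 247, 344 and 264 CPM in NC. Every Chol_CA library was below every library of the 4 other diets analysed. The log2 fold change was -1.55 ± 0.23, a 2.92-fold fall (adjusted p = 5.11e-05, edgeR), and all 16 alternatives kept the call. The 2 genes most like it over the 20 libraries were Acot4 (0.29) and Decr1 (0.31). Decr1 averaged 85.8 ± 9.99 CPM in Chol_CA and 186 ± 12.3 CPM in NC, which follows from its choice by likeness and is no separate result.

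Genes of the glucocorticoid axis gave 4 of 11 lower and none higher in Chol_CA. Hsd11b1, which regenerates active glucocorticoid, averaged 314 ± 17.4 CPM in Chol_CA and 459 ± 103 CPM in NC (adjusted p = 0.0151, edgeR). Tat, a classical glucocorticoid target in liver, averaged 836 ± 340 CPM in Chol_CA and 1646 ± 185 CPM in NC (adjusted p = 0.0137). Each of these calls was lost in 3 of 16 alternatives, that of Hsd11b1 without NC library 3 and that of Tat without Chol_CA library 1 or 2 among them (adjusted p up to 0.0779 and 0.279). Dusp1 and Pck1 were also called lower, and both calls held in all 16 alternatives. In CA over NC, Tat (-1.51 ± 0.28, adjusted p = 0.0017, edgeR) and Dusp1 (-1.36 ± 0.28, adjusted p = 0.00377) were lower as well. Hsd11b1, Pck1 and Serpina6 were not called there. Nr3c1, the glucocorticoid receptor, averaged 76.4 ± 21.1 CPM in Chol_CA and 98.7 ± 17.6 CPM in NC and was not called (adjusted p = 0.206).

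Serpina3g had 38.9, 66.2, 11.2 and 10.9 CPM in Chol_CA libraries 0 to 3, against 3.44, 4.02, 2.85 and 5.82 CPM in NC. All Chol_CA libraries were above all NC libraries, and libraries 0 and 1, both with the negative length trend, were highest. The log2 fold change was 2.98 ± 0.56, a 7.87-fold rise (adjusted p = 0.000478, edgeR), with 2.33 when Chol_CA library 1 was left out and 1.68 over the libraries with a positive trend alone. Its neighbour Serpina3f rose as well (2.20 ± 0.49, adjusted p = 0.00214), with 11.7 ± 6.80 CPM in Chol_CA and 2.52 ± 0.86 CPM in NC.

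Leukocyte markers were higher in the same livers. The 9 Kupffer cell and macrophage markers all rose in Chol_CA, with a summed level of 754 to 1971 CPM in Chol_CA and 76.2 to 107 CPM in NC; Cd5l averaged 463 ± 184 CPM in Chol_CA and 23.6 ± 2.57 CPM in NC. The 4 neutrophil markers tested rose (summed over 8 markers, 10.9 to 67.9 CPM in Chol_CA and 0.286 to 2.56 CPM in NC), as did 6 of 6 T and NK cell markers (11.7 to 58.6 CPM in Chol_CA and 2.33 to 8.66 CPM in NC) and 2 of 3 B cell markers (3.05 to 11.1 CPM summed in Chol_CA and 1.30 to 4.12 CPM in NC). The neutrophil markers Ly6g, Cxcr2 and Retnlg were at 0 in every NC library. Of 12 interferon-response genes 8 rose in Chol_CA; Cxcl9 averaged 180.2 ± 150.1 CPM in Chol_CA and 8.75 ± 3.43 CPM in NC, and Gbp2 61.1 ± 51.9 CPM in Chol_CA and 3.94 ± 2.03 CPM in NC. The Gbp2 call was lost over the libraries of positive trend alone (adjusted p = 0.0681, edgeR). Those of Igtp, an interferon-response gene, and Cd79b, a B cell marker, were lost in 9 of 16 and 9 of 15 alternatives. Of 17 genes of interleukin-6 and interleukin-1 signalling 7 rose and none fell. The part of these cells in the Serpina3g value was not tested. The genes most like Serpina3g in profile were Cd274 (0.37), Cfp (0.38) and AW112010 (0.38).

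The Serpina1 paralogs all had negative fold changes in Chol_CA, and those of Serpina1d and Serpina1b passed the test. Of 10 hepatocyte markers 5 fell in the same livers and none rose, and their part in these values was not tested. Serpina1d had 1012, 1222, 1027 and 1249 CPM in Chol_CA, against 2116, 1904, 1763 and 2798 CPM in NC (-0.93 ± 0.19, adjusted p = 0.00091, edgeR), without overlap. Serpina1b had 2112, 2809, 1933 and 2166 CPM in Chol_CA, against 3372, 2868, 2961 and 4617 CPM in NC (-0.62 ± 0.18, adjusted p = 0.0158). That call was lost in 4 of 16 alternatives, among them leaving out NC library 3 (-0.42, adjusted p = 0.0824).

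Serpina1e had 2126, 4513, 1364 and 2734 CPM in Chol_CA, against 7476, 4928, 5183 and 4709 CPM in NC. The groups did not overlap, but the log2 fold change of -1.05 ± 0.68 did not pass the test (adjusted p = 0.292, edgeR). Serpina1a had 334, 460.0, 291 and 329 CPM in Chol_CA, overlapping the 374 to 598 CPM of NC (-0.41 ± 0.20, adjusted p = 0.15). Serpina1c had 2108, 3041, 1994 and 2376 CPM in Chol_CA, overlapping the 2827 to 4248 CPM of NC (-0.45 ± 0.28, adjusted p = 0.269). Library 1 was the highest of the Chol_CA group in 4 of the 5 paralogs, Serpina1d being the exception. Library scaling bears on these sizes: with raw library totals every Chol_CA over NC value would be higher by about 0.32 on the log2 scale, which changed the sign of none of the 10 genes.

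Serpina3k, Serpina3m and Serpina3n were not called in Chol_CA. Serpina3k had 4919, 5506, 4912 and 6038 CPM in Chol_CA, against 7488, 5999, 6261 and 7262 CPM in NC (-0.34 ± 0.34, adjusted p = 0.527, edgeR), and 1 Chol_CA library lay within the NC range. Serpina3m had 132, 146, 111 and 116 CPM in Chol_CA, against 136, 183, 125 and 199 CPM in NC, with overlap (-0.35 ± 0.30, adjusted p = 0.449). Serpina3n had 485, 582, 442 and 384 CPM in Chol_CA, against 433, 372, 285 and 339.7 CPM in NC, with overlap. Its log2 fold change of 0.40 ± 0.15 lay at the threshold (adjusted p = 0.0537, edgeR), and 5 of 16 alternatives called it. Of 27 acute phase genes 14 rose and 2 fell in Chol_CA. Saa1 averaged 935 ± 891 CPM in Chol_CA and 28.2 ± 15.4 CPM in NC, Lcn2 392 ± 404 CPM in Chol_CA and 3.07 ± 1.11 CPM in NC, and Orm2 238 ± 214 CPM in Chol_CA and 9.98 ± 3.59 CPM in NC. Hp rose by 1.55 ± 0.35 on the log2 scale, while albumin, which is known to fall in the acute phase, averaged 40655 CPM in Chol_CA and 90972 CPM in NC.

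Other antiprotease genes moved in both directions in Chol_CA. Among 12 serpins outside clade A, 3 rose and 3 fell; Serpinb6a averaged 24.4 ± 10.7 CPM in Chol_CA and 6.61 ± 0.96 CPM in NC, and Serpinb9, an intracellular inhibitor of granzyme B, 28.0 ± 7.06 CPM in Chol_CA and 10.3 ± 1.66 CPM in NC. Angiotensinogen (Agt), a clade A serpin that is no inhibitor, fell by 0.72 ± 0.14 on the log2 scale (adjusted p = 0.000782, edgeR). Among the proteases, Ctsb rose to 1420.5 ± 416 CPM in Chol_CA, against 709 ± 26.3 CPM in NC, and F2 and Cela1 fell, the Cela1 call being lost in 5 of 16 alternatives. Of 11 liver transcription factors 2 fell (Nr1h4 and Cebpa), and none of 17 genes for folding and export was called (edgeR). Markers of 3 resident cell types were called in part, with 2 of 6 endothelial, 2 of 7 stellate and 2 of 5 cholangiocyte markers higher. The calls of Lyve1 (endothelial) and Sox9 (cholangiocyte) were lost in 7 and 8 of 16 alternatives. Elane, the gene of neutrophil elastase, had 0.887 ± 0.793 CPM in Chol_CA and 0.141 ± 0.201 CPM in NC and was too low to be tested.

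**Figure D5:**
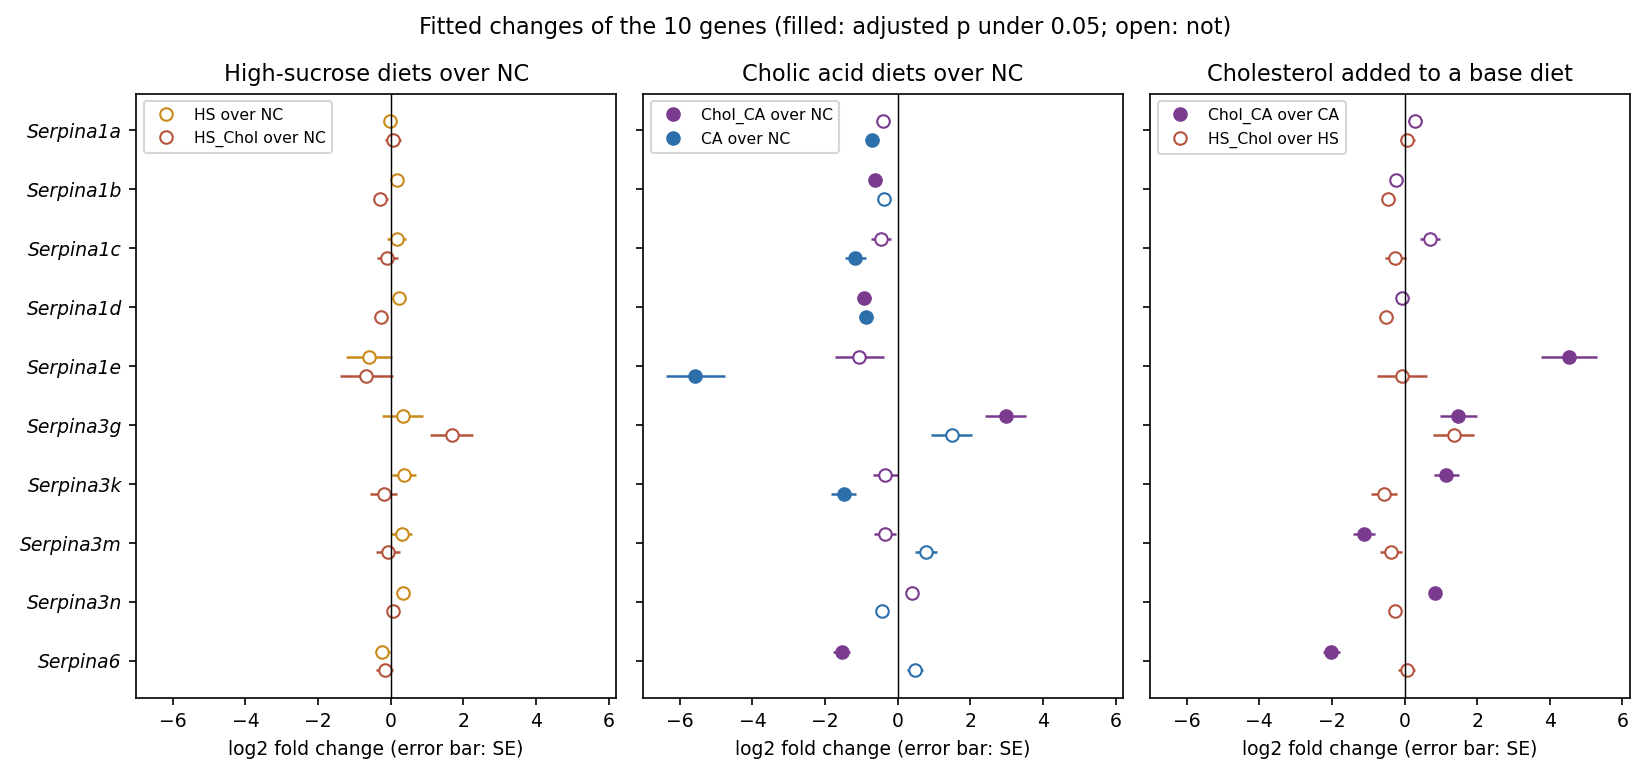
Fitted log2 fold changes (error bar SE) of the 10 genes: HS and HS_Chol over NC (left), Chol_CA and CA over NC (middle), and cholesterol added to CA or to HS (right); filled points have an adjusted p under 0.05. Points are filled for 5 genes in CA over NC, 4 in Chol_CA over NC and 6 in Chol_CA over CA, and for none with the high-sucrose diets.

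The comparison of Chol_CA with CA asks what cholesterol adds to cholic acid. Serpina1e, Serpina3k, Serpina3n and Serpina3g were higher in Chol_CA, and Serpina6 and Serpina3m were lower, against 21.2% of all genes called (13.4% higher and 7.80% lower). Serpina1e differed most, at 4.52 ± 0.78 on the log2 scale, 22.9-fold higher in Chol_CA (adjusted p = 0.000467, edgeR), and the groups did not overlap. Without CA library 0 it was 5.59 ± 0.80. Serpina12 had a like difference (4.38 ± 0.36, adjusted p = 2.58e-07), with 124 ± 38.0 CPM in Chol_CA and 5.93 ± 2.68 CPM in CA. These values share the CA libraries with the comparison of CA with NC and are no second measurement of it.

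Serpina3n had 384 to 582 CPM in Chol_CA, against 262 to 269 CPM in CA, a difference of 0.83 ± 0.15 (adjusted p = 0.000691, edgeR) with no overlap. Serpina6 had 77.8 to 108 CPM in Chol_CA, against 262 to 543 CPM in CA, a 4.06-fold lower level (-2.02 ± 0.24, adjusted p = 1.31e-05), again with no overlap. Both calls held in all 16 alternatives. The other 3 calls overlapped between groups: Serpina3k (1.15, adjusted p = 0.0218), Serpina3m (-1.13, adjusted p = 0.0111) and Serpina3g (1.48, adjusted p = 0.0423). Without CA library 0, Serpina3k was at 1.88 and Serpina3m at -1.41, and Serpina1c was called as well (1.18, adjusted p = 0.00081). The Serpina3k call was lost in 5 of 16 alternatives, 4 of them the omission of CA library 1, 2 or 3 or of Chol_CA library 3 (adjusted p up to 0.152 with the diets alone). The Serpina3g call was lost in 9 of 16 alternatives and was at 0.83 (adjusted p = 0.259) without Chol_CA library 1.

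The high-sucrose diets gave no call among the 10 genes. HS over NC called 0.651% of all genes (0.214% higher and 0.437% lower), HS_Chol over NC 2.28% (1.71% higher and 0.564% lower) and HS_Chol over HS 2.25% (1.60% higher and 0.651% lower). At an unadjusted p under 0.05 there was 1 of the 10 in HS over NC (Serpina3n), 1 in HS_Chol over NC (Serpina3g) and 3 in HS_Chol over HS (Serpina1b, Serpina1d and Serpina3g), and DESeq2 called 0 in each of the 3 comparisons (edgeR likewise 0). Serpina3k had 6356, 9431, 11061, 8343 and 8268 CPM in HS, against 7488, 5999, 6261 and 7262 CPM in NC (0.36 ± 0.33, adjusted p = 0.694, edgeR). It had 5724, 5035 and 6961 CPM in HS_Chol (-0.19 ± 0.37, adjusted p = 0.94), within or below the NC range.

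The other Serpina1 paralogs had split values within HS. Serpina1d had 1858, 1687 and 1795 CPM in HS_Chol, against 2641, 3114, 2961, 1973 and 1905 CPM in HS, with no overlap (-0.50 ± 0.20, adjusted p = 0.251, edgeR). Serpina1b had 2979.6, 2725 and 2821 CPM in HS_Chol, against 4218, 4794, 4424, 3114 and 2890.2 CPM in HS, with overlap (-0.45 ± 0.19, adjusted p = 0.294). In both genes HS libraries 0 to 2, which had the negative length trend, were above HS libraries 3 and 4. Serpina1c showed the same split, with 3779, 4443 and 4424 CPM in HS libraries 0 to 2 and 2823 and 2735 CPM in HS libraries 3 and 4, and had 2794 to 3193 CPM in HS_Chol. Serpina1a had 361 to 595 CPM in HS and 430.4 to 533 CPM in HS_Chol, against 374 to 598 CPM in NC.

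Serpina3n had 448, 520.0, 364, 519 and 412 CPM in HS, against 433, 372, 285 and 339.7 CPM in NC, and 3 HS libraries were above all NC libraries (0.34 ± 0.14, adjusted p = 0.371, edgeR). In HS_Chol it had 357 to 410.0 CPM (0.07 ± 0.16, adjusted p = 0.948). Serpina3m had 152 to 239 CPM in HS and 107 to 185 CPM in HS_Chol, against 125 to 199 CPM in NC, with overlap throughout. Serpina6 had 330.2, 267, 238, 155 and 179 CPM in HS and 268, 256 and 207 CPM in HS_Chol, against 242 to 344 CPM in NC (-0.23 ± 0.22 and -0.17 ± 0.25).

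Serpina1e was uneven within the sucrose groups. It had 856, 6326, 4556, 3535 and 3163 CPM in HS and 3322, 1209 and 5953 CPM in HS_Chol, against 4709 to 7476 CPM in NC. HS library 0 and HS_Chol library 1 were the lowest outside CA, followed by Chol_CA library 2 at 1364 CPM. The fold changes were -0.60 ± 0.63 for HS and -0.67 ± 0.73 for HS_Chol (adjusted p = 0.738 and 0.849, edgeR). Serpina3g had 25.1, 9.52 and 4.10 CPM in HS_Chol, against 2.85 to 5.82 CPM in NC, so 2 of 3 HS_Chol libraries were above the chow group (1.68 ± 0.60, adjusted p = 0.186, edgeR). Summed Kupffer cell and macrophage markers were 170 to 444 CPM in HS_Chol and 76.2 to 107 CPM in NC, with 3 of 9 higher (Csf1r, Cd5l and Vsig4). The calls of Csf1r and Vsig4 were each lost in 5 of 15 alternatives and that of Cd5l in 1, all 3 of them without HS_Chol library 0. Apcs was the only 1 of 27 acute phase genes called in HS_Chol (lower). Serpina12 rose in HS to 199.8 ± 39.8 CPM, against 76.6 ± 32.0 CPM in NC (1.38 ± 0.30, adjusted p = 0.0324), a call lost in 9 of 17 alternatives (adjusted p up to 0.151), 7 of them the omission of 1 library.

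Whether cholesterol acted differently on the base diets was tested as an interaction, the difference of Chol_CA from CA less that of HS_Chol from HS. It called 4 of the 10 genes, against 6.00% of all genes (2.47% higher and 3.53% lower): Serpina1e, Serpina3k and Serpina3n were positive and Serpina6 was negative. For Serpina6 the difference was -2.02 ± 0.24 on cholic acid and 0.06 ± 0.24 on sucrose (interaction -2.08 ± 0.33, adjusted p = 0.000485, edgeR). For Serpina3n it was 0.83 ± 0.15 on cholic acid and -0.27 ± 0.16 on sucrose (1.09 ± 0.22, adjusted p = 0.00364). For Serpina1e it was 4.52 ± 0.78 on cholic acid and -0.08 ± 0.69 on sucrose (4.60 ± 1.04, adjusted p = 0.0115), and the interaction was 5.66 ± 0.97 without CA library 0. The Serpina3k interaction (1.71 ± 0.50, adjusted p = 0.0481) lay at the threshold and 19 of 24 alternatives did not keep it, while without CA library 0 it was 2.43 ± 0.31 (adjusted p = 5.14e-05).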

How the data were processed

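Total liver RNA was sequenced from 1 end with 50 bp reads from strand-specific libraries. Per the submitters' processing notes, STAR 2.6.1c placed the reads on mm10 and gave the gene counts; the strand counted is not given in the sources used here. The authors deposited raw read counts per gene symbol in 23 columns of values. Of these, 20 were matched to a diet by name; 3 matched no label and were not used, and no library of the sixth diet was analysed. Column numbers start at 0 and cannot be tied to single labelled samples.

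Counts were tested as deposited with edgeR 4.0.16 (R 4.3.3; filterByExpr, TMM, robust quasi-likelihood fit, 1 mean per diet, 20 libraries in 1 fit, Benjamini-Hochberg over 12595 genes, threshold 0.05). Call rates were checked on counts simulated with the spread estimated in the main fit. Such counts hold no length trend, outlying library or reads shared between copies, so the check does not cover these. CPM used TMM effective library sizes; TMM factors ran from 1.10 to 1.23 in Chol_CA, 0.990 to 1.09 in CA, 0.964 to 1.03 in HS_Chol, 0.905 to 0.977 in HS and 0.885 to 0.941 in NC. Annotation and transcripts were GENCODE M21 (GRCm38), which may not be the one used for counting, and promoters were from RefSeq. Paralog ratios used exact two-sided permutation tests (scipy 1.17.1). Coding identities came from Biopython 1.88 alignments.

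All 10 genes were described in every comparison. Of each other list, counts are given, with up to 3 called genes of smallest adjusted p in the comparisons of HS_Chol, Chol_CA and CA with NC, and a fixed set that included Saa1, Orm2, Hp, Lcn2, Nr3c1, Ghr, Igf1, Hsd11b1 and Elane. Genes most alike were the 3 of smallest root mean square difference of centred log2 CPM. The genes and lists were chosen with earlier results of these data known. Alternatives were DESeq2 1.42.0, upper-quartile scaling, raw library totals, no filter, a filter of at least 5 CPM in 3 libraries, the diets of a comparison alone, a replicate block, a length-trend term, libraries of positive length trend alone, and each library left out.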

Additional observations from a re-analysis of the deposited data

Results flagged for a closer look

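Serpina1c in NC had its highest library at 4248 CPM (library 3), far from the other 3 NC libraries at 2827 to 3015 CPM. It was the only one of 40 gene and diet groups checked with a library so far from the rest, and chance flags about 1 in 20 such groups. NC library 3 was the only NC library with the negative length trend. It was also the highest of NC in Serpina1a (598 CPM), Serpina1b (4617 CPM) and Serpina1d (2798 CPM), and the lowest in Serpina1e (4709 CPM). The part of the trend in these values was not tested. The Serpina1c fall in CA was -1.01 on the log2 scale without NC library 3 (adjusted p = 0.035, edgeR).

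The effect of added cholesterol differed between the cholic acid and the sucrose base diets for 4 genes by the interaction test. The difference of the effects, cholic acid less sucrose, was 4.60 for Serpina1e, 1.71 for Serpina3k, 1.09 for Serpina3n and -2.08 for Serpina6 on the log2 scale. What sets these differences was not tested.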

How the results depend on the processing

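Of 1200 refitted values of the 10 genes, 1082 kept their direction and their side of the threshold, 48 lost a call, 24 gained one, 46 uncalled values changed sign, and no called value changed sign. With raw library totals, a choice made after the data were seen, 5 uncalled values and no called one changed sign, and the summed Serpina3 reads in Chol_CA over NC were at 0.04 instead of -0.28.

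In CA over NC the diets alone called 3 of the 10 genes and the libraries of positive length trend alone 9, against 5. In Chol_CA over CA the diets alone called 3, against 6. Serpina1c and Serpina3k in CA lost their calls with the diets alone (adjusted p = 0.0748 and 0.0858, edgeR). The Serpina1e interaction was lost with positive-trend libraries alone (5.09, adjusted p = 0.0551).

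Genes called of all tested moved by more than 1.5 times as follows. HS over NC, 82: DESeq2 198, positive trend alone 379, trend term 143. HS_Chol over NC, 287: stricter filter 152, DESeq2 549, no filter 436, positive trend alone 617, trend term 503. CA over NC, 1238: positive trend alone 2966, trend term 1999. HS_Chol over HS, 283: stricter filter 164, DESeq2 493, trend term 438. Chol_CA over CA, 2676: diets alone 1586. Interaction, 756: positive trend alone 1416. The cause was not tested.

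Leaving out each library gave 3 to 5 of the 10 genes in Chol_CA over NC, 4 to 6 in CA over NC, 4 to 7 in Chol_CA over CA, 3 to 6 in the interaction and 0 in the 3 sucrose comparisons. The 6 in CA over NC, 7 in Chol_CA over CA and 6 in the interaction came without CA library 0. Over all genes it gave 35 to 158 in HS over NC (35 without NC library 2, 158 without NC library 3, 44 to 51 without HS libraries 1, 3 or 4 or NC library 0), 183 to 375 in HS_Chol over NC (183 without HS_Chol library 0), 2385 to 3414 in Chol_CA over NC, 799 to 1311 in CA over NC (799 without NC library 0), 186 to 281 in HS_Chol over HS (186 without HS_Chol library 0), 1678 to 3218 in Chol_CA over CA (1678 without CA library 2) and 448 to 1315 in the interaction (448 without CA library 2, 476 without HS_Chol library 1, 1315 without CA library 0).

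Library numbers were not taken as pairs in the main fit. Over 36 same-number pairs the correlation of deviations ran from -0.45 to 0.37, with 16 above 0.1. The median was 0.06, against -0.01 for pairs of different numbers. Library 0 had the negative length trend in HS, HS_Chol, Chol_CA and CA, but not in NC. Whether libraries of the same number share a batch was not tested. With the replicate block, HS over NC called 35 genes instead of 82, the Serpina3k interaction was lost (1.91, adjusted p = 0.0666, edgeR), and no other call among the 10 genes changed.

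Genes counted with few reads, such as Serpina3g and Serpina9, have the least depth behind them.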
